A study of Mus musculus with 8 samples.

Results

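The proteasome genes described here are the rows of the deposited gene tables whose symbol is Psma, Psmb, Psmc, Psmd, Psme, Psmf or Psmg followed by a number, without Psmb8, Psmb9 and Psmb10, the inducible catalytic subunits. This rule took 50 of 38215 genes. They comprised 8 genes of the alpha rings (Psma) and 8 of the beta rings (Psmb) of the 20S core. The 19S regulatory particle (Psmc and Psmd) gave 9 genes of the base and 8 of the lid. Further rows were 4 activators (Psme), 8 assembly chaperones or inhibitors and 4 genes with a pseudogene symbol. The last was Psmc3ip, whose symbol matches although it encodes a meiotic recombination factor and no subunit. Of the 50 genes, 45 passed the expression filter, among 13397 genes that did so in all, and were compared between bone marrow and spleen.

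RNAseq was performed on FoxP3+ regulatory T cells (Treg) sorted from the bone marrow (BM-Treg) or the spleen (SP-Treg) of naive B6.FoxP3-GFP mice aged 12 weeks, in which GFP reports FoxP3, and each tissue gave 4 libraries. All mice shared this background, given as C57Bl/6 in the sample labels, and none was treated. BM-Treg replicates 1 to 3 came from females and were labelled batch 1, whereas the 4 SP-Treg libraries and BM-Treg replicate 4 came from males and were labelled batch 3, so that batch and sex cannot be told apart and both are largely confounded with tissue. The names of the SP-Treg libraries carry ranges of numbers that overlap, the labels do not say what the ranges stand for, and the p-values therefore measure the spread between these libraries only.

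The proteasome is the protease that degrades proteins marked with ubiquitin. Its 20S core is a stack of alpha and beta rings with the proteolytic sites on the inside, and its 19S cap binds, unfolds and deubiquitinates the substrate. T cells also use activators such as PA28, which open the core without ubiquitin, and exchange the catalytic beta subunits for those of the immunoproteasome.

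Each library held between 12427136 and 21921252 expected counts on genes (estimated reads, which need not be whole). The Treg identity of the sort was seen in every library: Foxp3 was between 1274 and 2083 CPM (counts scaled by TMM library size) and the 6 Treg markers together between 7221 and 8746 CPM. Of the markers of other cells, those of erythroid cells (5 of 7 listed were in the tables) summed to between 4.99 and 9.51 CPM in BM-Treg and between 1.15 and 129.8 CPM in SP-Treg, and those of B cells (4 of 4) to between 10.7 and 13.7 CPM and between 6.33 and 88.5 CPM. Markers of plasma cells (3 of 5, 0 to 0.395 CPM in BM-Treg, 0.575 to 25.2 CPM in SP-Treg), neutrophils (9 of 9, 1.315 to 10.04 and 0.216 to 17.6), plasmacytoid dendritic cells (4 of 4, 17.4 to 27.4 and 25.6 to 33.1), CD8 T cells (2 of 2, 10.9 to 12.6 and 13.2 to 41.1) and macrophages (4 of 5, 0.920 to 4.39 and 1.01 to 3.68) were low throughout, and no marker present in the tables was at 0 in every library. Their part in the values below was not tested.

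Most proteasome genes were slightly lower in BM-Treg than in SP-Treg, by amounts that for all but 2 of them did not pass the adjusted threshold, and the size of the shift depended on which libraries were included. At an adjusted p under 0.05 (edgeR quasi-likelihood test, adjusted over all genes tested), 2 of the 45 proteasome genes were lower in BM-Treg, Psme2 and Psmd1, none was higher and 43 were not called. Among all genes tested 8.75% were called and 5.02% were called lower, so the share of proteasome genes called lower was near that of all genes. At an unadjusted p under 0.05, 14 were lower and 0 higher. Among all 13397 genes tested, 12.4% were lower and 1455 genes were higher. Using other tools, DESeq2 called 4 of them lower (Psmd1, Psmd13, Psme2 and Psme2b-ps; 6.89% of all genes) and limma-voom 3 (Psmd1, Psmd13 and Psme2; 5.22%), and neither called any higher. In bulk samples, fewer cells of a type and less RNA per cell cannot be told apart.

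The direction was more uniform than the calls. The fitted log2 fold change (BM-Treg over SP-Treg) was negative in 34 of the 45 genes (75.6%) and in 51.4% of all genes tested. Its median was -0.22 over the 45 genes, 1.17 times more in SP-Treg, with values between -0.64 and 0.57, a middle range of -0.33 to -0.01 and a median standard error of 0.13. Over all genes the median was -0.01. Every BM-Treg library was below every SP-Treg library for 7 of the 45 genes (Psme2, Psme3, Psmc5, Psmd1, Psmd2, Psma6 and Psmd13) and above for 0. Of all 13397 genes tested, 8.57% had the libraries apart in the lower direction and 1016 genes in the higher. The 95% confidence interval lay within 1.5-fold either way for 30 of the 45 genes and within 2-fold for 42.

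**Figure D1:**
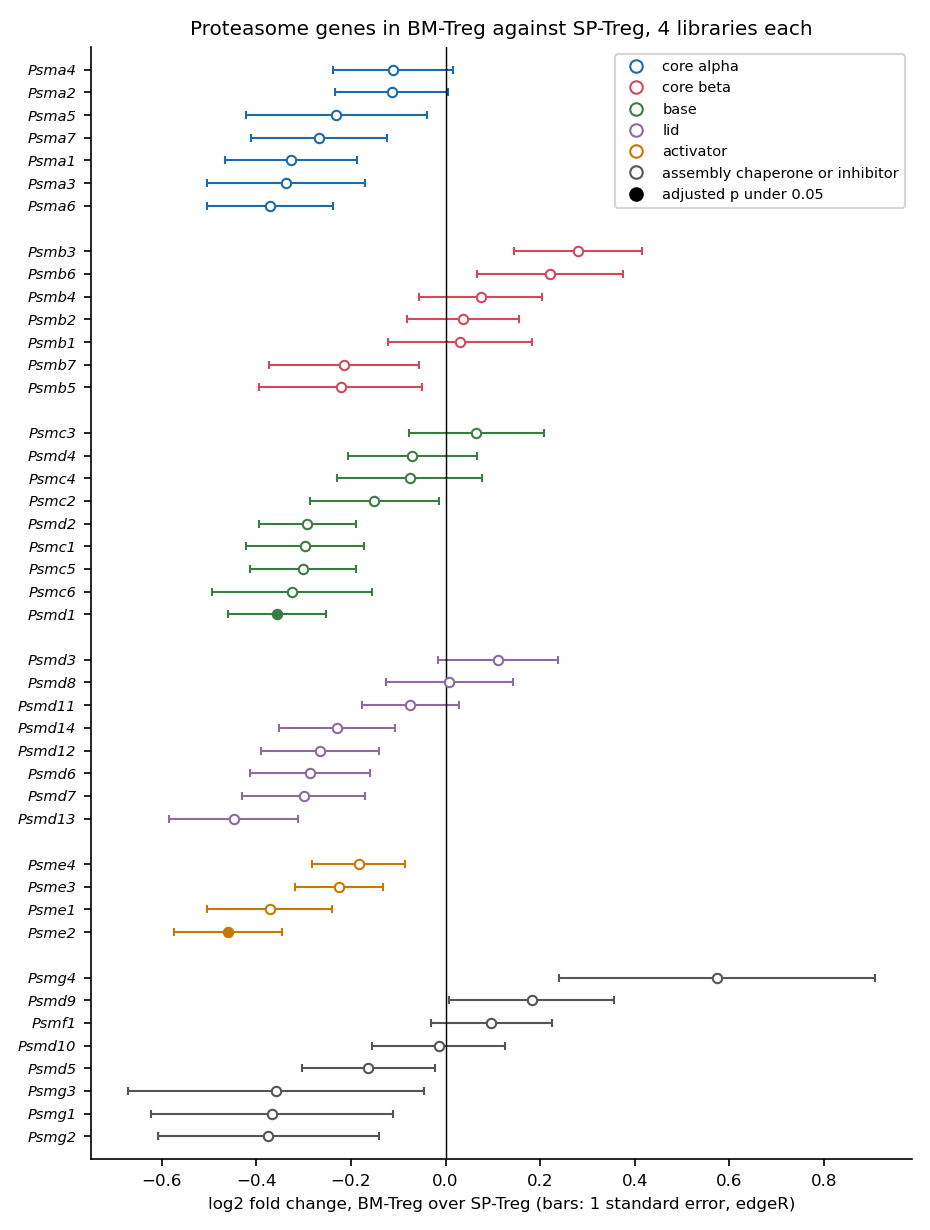
Log2 fold change of each subunit, activator, chaperone and inhibitor gene that passed the filter (BM-Treg over SP-Treg, 4 libraries each), grouped by role, with bars of 1 standard error from edgeR and filled points for an adjusted p under 0.05. The 7 core alpha genes and the 4 activator genes all lie to the left of 0, while 5 of the 7 core beta genes lie to the right, and the filled points are Psmd1 and Psme2.

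A pair of libraries stood apart for these genes in opposite directions. The log2 CPM of each gene was set against its mean over the 8 libraries. In BM-Treg replicate 1 the median deviation of the 45 genes was -0.24, and 21 of them (46.7%) had their lowest value there, compared with 14.3% of all genes. In SP-Treg replicate 4 it was 0.32, and 26 of them (57.8%) had their highest value there, compared with 15.0% of all genes. The other 6 libraries had medians between -0.08 and 0.06, and the median over all genes was between -0.01 and 0.02 in every library. The counts on mitochondrially encoded genes in these 2 libraries, 25.5% and 29.6% of the total, lay within the range of the others (19.2% to 32.9%), as did their total counts. Both libraries were picked for their values of these same genes, so that leaving them out lessens the difference by construction and favours calls higher in BM-Treg. Without them the median log2 fold change of the 45 genes was -0.04, 25 of the 45 were negative, and 1 gene was called, Psmb3, higher in BM-Treg. Leaving out BM-Treg replicate 1 alone gave a median of -0.14 and leaving out SP-Treg replicate 4 alone a median of -0.13, each with 0 genes called. Within batch 3, where BM-Treg has 1 library and no test was made, the median was -0.09 and 27 of 45 were negative, and a fit with a batch term gave -0.10, 27 negative and 0 called.

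**Figure D2:**
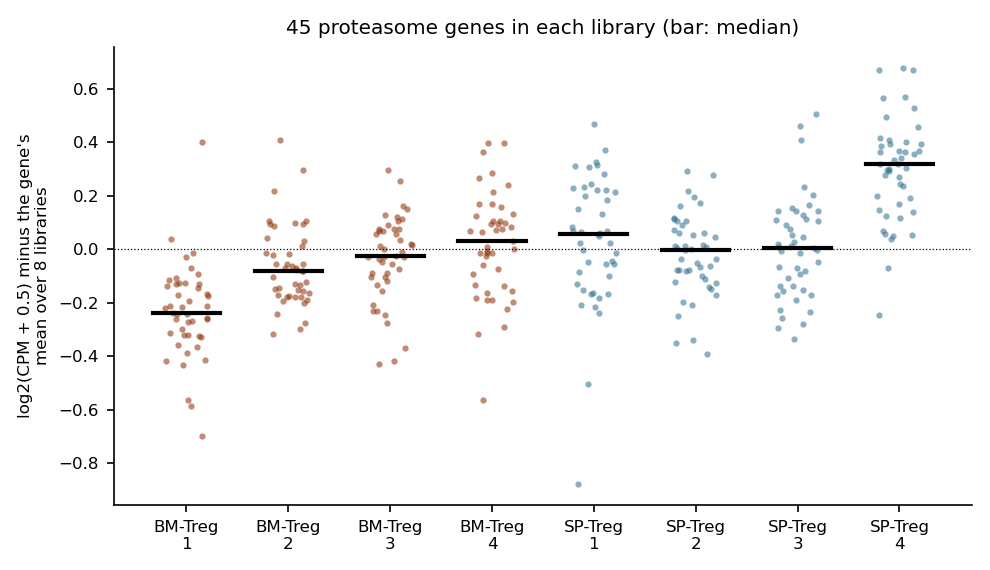
Deviation of each of the 45 proteasome genes from its own mean over the 8 libraries (y axis, log2 of CPM plus 0.5) in each library (x axis), with a bar at the median. BM-Treg replicate 1 lies lowest at -0.24 and SP-Treg replicate 4 highest at 0.32, and the other 6 medians lie between -0.08 and 0.06.

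The activators had a median log2 fold change of -0.30, with 4 of 4 genes negative and 1 called. Psme1 and Psme2 encode the alpha and beta chains of PA28, the interferon-inducible ring that caps the core during antigen processing. Psme2 (ENSMUSG00000079197, GRCm38 chr14:55587441-55591113, minus strand) was at 89.4, 101, 102 and 118 CPM in BM-Treg replicates 1 to 4 and at 126, 145, 129 and 164 CPM in SP-Treg. The libraries of the tissues did not overlap. Psme2 was lower in BM-Treg by a log2 fold change of -0.46 (SE 0.11, 95% interval -0.71 to -0.21, edgeR adjusted p = 0.0222), that is 1.38 times higher in SP-Treg. The call was lost without BM-Treg replicate 1, 2 or 3 or SP-Treg replicate 2 or 4, with adjusted p between 0.0174 and 0.0846 over the 8 libraries left out in turn, and Psme2 was at -0.24 within batch 3, where BM-Treg replicate 4 was still below each SP-Treg library, and at -0.26 (edgeR adjusted p = 0.452) with a batch term. Psme2b-ps, a near copy of Psme2, is listed as a pseudogene by its symbol, although its annotated biotype is protein coding. It was at 48.3 to 63.7 CPM in BM-Treg and at 60.6 to 73.0 CPM in SP-Treg. Since reads can be split between near copies, the counts of Psme2 and Psme2b-ps were also summed. The sum was 156 ± 18.2 CPM (SD, n = 4) for BM-Treg and 209 ± 22.2 CPM (SD, n = 4) for SP-Treg, a log2 fold change of -0.42 (SE 0.11, edgeR adjusted p = 0.0274).

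Its partner chain did not pass the test. Psme1 was at 358, 422, 478 and 434 CPM in BM-Treg and at 421, 547, 634 and 589 CPM in SP-Treg. SP-Treg replicate 1 lay within the BM-Treg range and the other 3 SP-Treg libraries above it, with a log2 fold change of -0.37 (SE 0.13, edgeR adjusted p = 0.0960). Leaving out SP-Treg replicate 1, the library that overlapped, widens the gap by construction, and Psme1 then passed (-0.46, edgeR adjusted p = 0.0338). It did not pass with any other single library left out (edgeR adjusted p between 0.0911 and 0.280) or with a batch term (-0.33, 0.443). With a replicate block it passed (-0.36, edgeR adjusted p = 0.0491). The ratio of Psme1 to Psme2 in FPKM, which is per length, ranged from 3.74 to 4.52 in BM-Treg and from 3.32 to 4.72 in SP-Treg and overlapped. Psme3 encodes PA28 gamma, the nuclear activator. It was at 111, 109, 122 and 106 CPM in BM-Treg and at 132, 127, 139 and 124 CPM in SP-Treg, without overlap between the tissues, and the log2 fold change of -0.22 (SE 0.09) did not pass (edgeR adjusted p = 0.155). Psme4 encodes PA200, a nuclear activator with a role in chromatin. It was at 80.3, 85.1, 79.3 and 87.5 CPM in BM-Treg and at 103, 84.5, 97.5 and 91.9 CPM in SP-Treg, which overlapped (-0.18, SE 0.10, edgeR adjusted p = 0.282). The 4 activators summed to 865, 1004, 1113 and 1022 FPKM in BM-Treg and to 1179, 1220.3, 1272 and 1353 FPKM in SP-Treg (1001 ± 102 and 1256 ± 74.7, SD, n = 4), with each BM-Treg library below each SP-Treg library. Psme1 made up most of this sum. In summed CPM the gap nearly closed, with BM-Treg replicate 3 at 781.2 and SP-Treg replicate 1 at 781.7. The activators kept a median between -0.35 and -0.23 in each of the alternative fits, including -0.23 without BM-Treg replicate 1 and SP-Treg replicate 4 and -0.26 within batch 3.

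**Figure D3:**
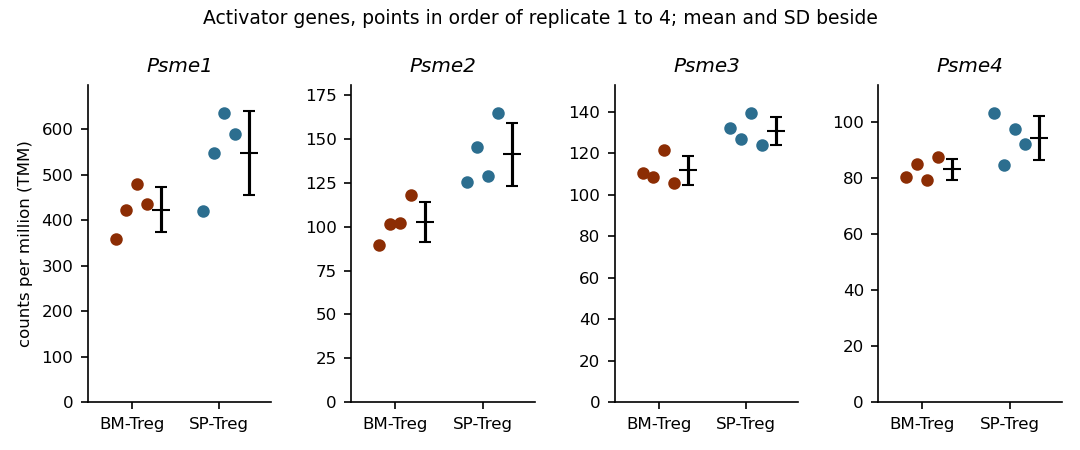
CPM of the 4 activator genes in each library, from left to right replicate 1 to 4 of each tissue, with the mean and SD (n = 4) beside the points and each axis starting at 0. Psme2 and Psme3 do not overlap between tissues, whereas Psme1 has SP-Treg replicate 1 at 421 CPM within the BM-Treg range and Psme4 has SP-Treg replicate 2 at 84.5 CPM within it.

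Promoter sequences are shown to set these genes beside elements known from proteasome promoters: the antioxidant response element bound by NFE2L1, the factor that raises proteasome genes when the proteasome is inhibited, the NF-Y box and the ETS motif. Each window ran from 250 bases before to 50 bases after the RefSeq start (GRCm38.p6), 41 windows were found for 38 of the 50 genes, and 12 genes had none in the table. On both strands TGACNNNGC, the core of the antioxidant response element with N for any base, was in 6 of the 41 windows (14.6%; 12.4% of 32851 windows of all genes and 14.5% of those of tested genes). CCAAT was in 14 (34.1%; 37.4% and 38.0%), and CCGGAAG in 16 (39.0%; 8.86% and 17.9%), where each motif was counted on its own and a base could belong to several. These are matches of letters and were given no test. The 250 bases before the start are shown for Psme2, the called activator, for Psmb5 and Psmb6, the catalytic subunits with an antioxidant response element core, and for the base ATPase Psmc1 as an example with the other motifs. They lie at chr14:55591102-55591351 (minus strand), chr14:54617996-54618245 (minus), chr11:70525107-70525356 (plus) and chr12:100109952-100110201 (plus), and capitals mark the matches.
Psme2: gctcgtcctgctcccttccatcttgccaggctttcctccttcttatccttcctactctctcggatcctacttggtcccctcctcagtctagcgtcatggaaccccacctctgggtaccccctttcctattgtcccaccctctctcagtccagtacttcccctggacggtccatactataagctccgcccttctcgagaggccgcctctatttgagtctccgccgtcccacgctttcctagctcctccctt
Psmb5: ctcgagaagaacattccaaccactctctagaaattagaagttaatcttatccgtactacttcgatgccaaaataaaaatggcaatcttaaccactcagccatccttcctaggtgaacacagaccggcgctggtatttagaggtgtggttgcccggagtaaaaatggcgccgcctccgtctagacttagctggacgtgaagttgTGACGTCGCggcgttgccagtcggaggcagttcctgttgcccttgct
Psmb6: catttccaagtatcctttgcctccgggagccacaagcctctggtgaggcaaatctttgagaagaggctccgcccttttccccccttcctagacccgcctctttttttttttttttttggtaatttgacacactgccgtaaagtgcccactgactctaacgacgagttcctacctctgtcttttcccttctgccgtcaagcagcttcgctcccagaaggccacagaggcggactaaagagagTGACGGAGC
Psmc1: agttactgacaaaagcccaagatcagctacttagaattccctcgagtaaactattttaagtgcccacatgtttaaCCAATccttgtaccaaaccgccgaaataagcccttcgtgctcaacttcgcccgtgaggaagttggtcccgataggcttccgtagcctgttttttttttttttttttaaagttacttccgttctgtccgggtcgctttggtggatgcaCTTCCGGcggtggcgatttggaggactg
None of the 3 motifs was in the Psme2 window. The antioxidant response element core was 47 to 39 bases before the start of Psmb5 and 9 to 1 bases before that of Psmb6. In Psmc1 a CCAAT lay 175 to 171 bases and the reverse complement of CCGGAAG 28 to 22 bases before the start.

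The alpha rings form the gate of the 20S core, through which substrates enter. All 7 core alpha genes that passed the filter had negative log2 fold changes, between -0.37 and -0.11 with a median of -0.27, and 0 of the 7 were called. Psma6 had the largest difference, at 38.7, 49.5, 48.1 and 49.1 CPM in BM-Treg and at 60.1, 55.8, 49.9 and 73.9 CPM in SP-Treg. Its libraries did not overlap, although BM-Treg replicate 2 at 49.5 CPM was next to SP-Treg replicate 3 at 49.9 CPM, and the log2 fold change of -0.37 (SE 0.13) did not pass (edgeR adjusted p = 0.101). SP-Treg replicate 4 was the highest library for this role, with a median deviation of 0.49, and without it and BM-Treg replicate 1 the median of the core alpha genes was -0.01. The eighth alpha gene, Psma8, encodes the alpha subunit of the testis proteasome and had 0 counts in 7 libraries and 2 counts in SP-Treg replicate 4.

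The beta rings carry the proteolytic sites, and their genes did not share the direction of the alpha genes. The 7 core beta genes that passed the filter had log2 fold changes between -0.22 and 0.28 with a median of 0.04, 5 positive and 2 negative, and 0 were called. Psmb3, a non-catalytic beta subunit, was at 26.8, 36.4, 37.4 and 38.2 CPM in BM-Treg and at 26.5, 28.7, 26.6 and 32.4 CPM in SP-Treg. BM-Treg replicates 2 to 4 lay above each SP-Treg library and replicate 1 among them, and the log2 fold change of 0.28 (SE 0.14) did not pass (edgeR adjusted p = 0.228). Without BM-Treg replicate 1 and SP-Treg replicate 4 it was 0.48 (edgeR adjusted p = 0.0479). Both libraries were picked for their values of these same genes. They are the lowest BM-Treg and the highest SP-Treg library for Psmb3. Leaving them out raises its log2 fold change by construction, so this p-value is not read as a difference.

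The catalytic subunits Psmb6, Psmb7 and Psmb5 provide the caspase-like, trypsin-like and chymotrypsin-like activities of the core, and the promoters of Psmb5 and Psmb6 hold the antioxidant response element core shown above. Psmb6 was at 31.3, 35.0, 38.0 and 45.2 CPM in BM-Treg and at 24.0, 30.8, 35.3 and 37.9 CPM in SP-Treg, with a log2 fold change of 0.22 (SE 0.15, 95% interval -0.11 to 0.55). Psmb7 was at 36.1, 37.3, 44.4 and 52.6 CPM in BM-Treg and at 52.9, 46.8, 37.2 and 60.5 CPM in SP-Treg (-0.22, SE 0.16, interval -0.55 to 0.12). Psmb5 was at 31.3, 40.4, 43.7 and 60.0 CPM in BM-Treg and at 48.5, 47.1, 46.7 and 61.6 CPM in SP-Treg (-0.22, SE 0.17, interval -0.59 to 0.15). All 3 overlapped between the tissues and none passed the test, and Psmb5 and Psmb7 turned positive with a batch term (0.23 and 0.09). The exons of Psmb7 share 405 bases with those of Nek6 on the opposite strand, and whether the counting used strand is not given in the sources used here. Psmb11, the beta subunit of thymic cortical epithelium, had 1 to 11 expected counts per library and was not tested.

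The balance between the alpha genes and the beta genes without Psmb8, Psmb9 and Psmb10 differed between the tissues in every library. The summed FPKM of the alpha genes over that of the beta genes was 1.115, 1.09, 1.05 and 1.04 in BM-Treg and 1.19, 1.21, 1.32 and 1.36 in SP-Treg (1.07 ± 0.03 and 1.27 ± 0.08, SD, n = 4). With TMM-scaled CPM it was between 1.21 and 1.37 in BM-Treg and between 1.47 and 1.62 in SP-Treg, again without overlap. The mean log2 FPKM of the alpha genes exceeded that of the beta genes by -0.07 to 0.10 in BM-Treg and by 0.20 to 0.37 in SP-Treg, a measure in which each gene counts equally. Within batch 3 the BM-Treg library, at 1.04, was below the 4 SP-Treg libraries. This ratio was computed after the values of the genes had been seen and was given no test. Psmb8, Psmb9 and Psmb10, which can replace Psmb5, Psmb6 and Psmb7, are missing from its beta side. Their mean FPKM was 156, 310 and 36.9 in BM-Treg and 156, 384 and 30.7 in SP-Treg. The beta genes that were summed gave 417 and 398 FPKM. A ratio over all beta genes was not computed, so the separation is shown only for the genes summed here.

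**Figure D4:**
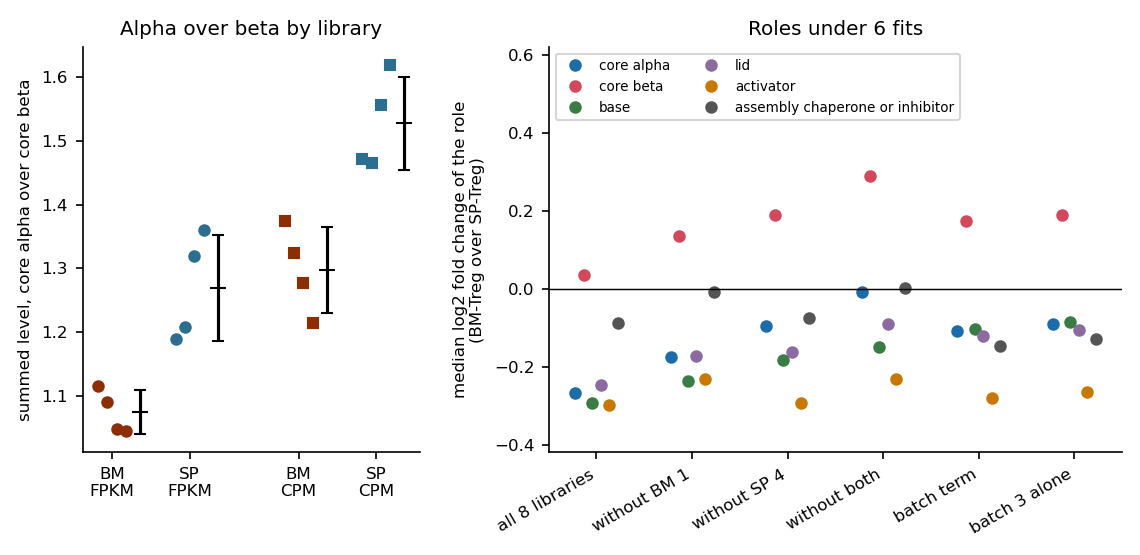
Left, summed level of the core alpha genes over that of the core beta genes without Psmb8, Psmb9 and Psmb10 in each library. Circles are FPKM and squares TMM-scaled CPM, replicates 1 to 4 from left to right, with mean and SD (n = 4). In both units each BM-Treg library is below each SP-Treg library. Right, median log2 fold change (BM-Treg over SP-Treg) of each role under 6 fits, with the activators between -0.30 and -0.23, the core beta genes between 0.04 and 0.29, and the core alpha genes between -0.27 and -0.01.

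The base comprises the AAA ATPase ring (Psmc1 to Psmc6), which unfolds the substrate, and the scaffold and receptor subunits Psmd1, Psmd2 and Psmd4. Of its 9 genes 8 were negative, with a median of -0.29 and values between -0.36 and 0.06, and 1 was called. Psmd1 (ENSMUSG00000026229, GRCm38 chr1:86064387-86139151, plus strand), a scaffold subunit, was at 59.4, 67.7, 65.4 and 56.3 CPM in BM-Treg and at 87.1, 75.6, 75.8 and 80.4 CPM in SP-Treg. The libraries did not overlap. Psmd1 was lower in BM-Treg by a log2 fold change of -0.36 (SE 0.10, 95% interval -0.58 to -0.14, edgeR adjusted p = 0.0448), that is 1.28 times higher in SP-Treg. The call was lost whichever of the 8 libraries was left out (edgeR adjusted p between 0.0569 and 0.136), and the log2 fold change was -0.49 within batch 3 and -0.50 with a batch term (edgeR adjusted p = 0.125). Exons of Psmd1 share 252 bases with Htr2b on the opposite strand and 301 bases with Gm21972 on the same strand.

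Psmd2, the other scaffold subunit, and the ATPase gene Psmc5 were also without overlap. Psmd2 was at 48.6, 48.1, 43.1 and 49.7 CPM in BM-Treg and at 61.6, 54.4, 58.9 and 57.1 CPM in SP-Treg (-0.29, SE 0.10, edgeR adjusted p = 0.0925). Psmc5 was at 48.3, 51.9, 56.5 and 52.7 CPM in BM-Treg and at 60.6, 58.3, 62.6 and 76.3 CPM in SP-Treg (-0.30, SE 0.11, edgeR adjusted p = 0.118). Both were named for the gap between tissues after their values were seen. Psmd4, a ubiquitin receptor, was at 26.04, 29.9, 33.3 and 33.6 CPM in BM-Treg and at 28.1, 35.0, 28.0 and 37.8 CPM in SP-Treg. These overlapped, with a log2 fold change of -0.07 (SE 0.14, 95% interval -0.36 to 0.22) that was positive in 5 of 20 alternatives, batch 3 alone included.

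The lid removes the ubiquitin chain. Of its 8 genes 6 were negative, with a median of -0.25 and values between -0.45 and 0.11, and 0 were called. Psmd13 had the largest difference, at 14.5, 15.0, 16.2 and 18.9 CPM in BM-Treg and at 22.9, 21.2, 20.8 and 22.9 CPM in SP-Treg. The libraries did not overlap in CPM, but in FPKM BM-Treg replicate 3 at 27.6 lay within the SP-Treg range. The log2 fold change of -0.45 (SE 0.14) missed the threshold (edgeR adjusted p = 0.0550). Among the alternatives it passed in 3: with DESeq2 (adjusted p = 0.0229), limma-voom (0.0407) and without BM-Treg replicate 4 (edgeR adjusted p = 0.0322). It did not pass with a batch term (-0.22, edgeR adjusted p = 0.601) or a replicate block (edgeR adjusted p = 0.0853). On log2(FPKM + 1) the limma adjusted p was 0.590. Within batch 3 the difference was -0.20. Exons of Psmd13 share 342 bases with Sirt3 on the opposite strand. Psmd14 encodes the deubiquitinase of the lid and was at 36.7, 44.2, 42.7 and 46.9 CPM in BM-Treg and at 47.8, 46.3, 46.3 and 59.3 CPM in SP-Treg (-0.23, SE 0.12, edgeR adjusted p = 0.276), where BM-Treg replicate 4 lay among the SP-Treg libraries.

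The assembly chaperones and inhibitors showed no common direction. Of the 8 genes (Psmg1 to Psmg4, Psmd5, Psmd9, Psmd10 and Psmf1) 5 were negative and 3 positive, with a median of -0.09, and 0 were called. Psmg4, a chaperone of alpha ring assembly, had the largest difference and few counts, at 3.51, 3.53, 2.89 and 2.68 CPM in BM-Treg and at 1.15, 3.03, 2.26 and 2.06 CPM in SP-Treg (0.57, SE 0.33, 95% interval -0.14 to 1.29). Psmf1, the inhibitor PI31, was at 34.3, 37.2, 33.4 and 38.9 CPM in BM-Treg and at 32.6, 27.0, 35.8 and 38.9 CPM in SP-Treg, which overlapped (0.10, SE 0.13, interval -0.18 to 0.37). Of the rows that are no subunit, Psmc3ip was at 2.93 to 4.13 CPM in BM-Treg and at 4.03 to 7.57 CPM in SP-Treg (-0.64, SE 0.26, edgeR adjusted p = 0.149) and Psme2b-ps had a log2 fold change of -0.35 (SE 0.12, edgeR adjusted p = 0.0770). The median without these rows was -0.22. Exons of Psmc3ip share 385 bases with Mlx on the opposite strand. Its protein coding transcript took 7.53% to 92.0% of its counts in BM-Treg and 62.7% to 89.8% in SP-Treg. Psmb5-ps had 2 to 12 expected counts per library, Psmb6-ps 0 in 7 libraries and 3 in SP-Treg replicate 4, and Psmb7-ps2 0 to 2.37, and these pseudogenes were not tested.

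Levels were compared between genes by FPKM, the reads scaled by transcript length and sequencing depth. Psme1 was the highest of the 45 genes (746 ± 86.8 FPKM in BM-Treg and 927 ± 70.6 FPKM in SP-Treg, SD, n = 4), followed by Psme2 (180 ± 22.9 and 244 ± 32.6 FPKM). The positions of the 20S core are filled in equal number, those of Psmb5, Psmb6 and Psmb7 also by Psmb8, Psmb9 and Psmb10. Among its 14 genes taken by the rule, the mean FPKM over the 8 libraries spanned 4.10-fold, from Psma1 at 27.6 to Psma7 at 113 FPKM. The base spanned 3.49-fold, from Psmc6 at 18.1 to Psmc3 at 63.1 FPKM, and the lid 3.06-fold, from Psmd3 at 12.1 to Psmd14 at 37.1 FPKM. Psma7, Psma2 and Psmb4, the most abundant of the 14 core genes, did not differ beyond their spread. The core genes without Psmb8, Psmb9 and Psmb10 summed to 746, 869.9, 917 and 919 FPKM in BM-Treg and to 904, 800.1, 783 and 1134 FPKM in SP-Treg (863 ± 81.2 and 905 ± 162, SD, n = 4). These sums overlapped, with a BM-Treg to SP-Treg ratio of 0.953. The base summed to 291 ± 17.7 and 318 ± 54.8 FPKM and the lid to 204 ± 10.8 and 224 ± 23.6 FPKM, and both overlapped between the tissues.

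**Figure D5:**
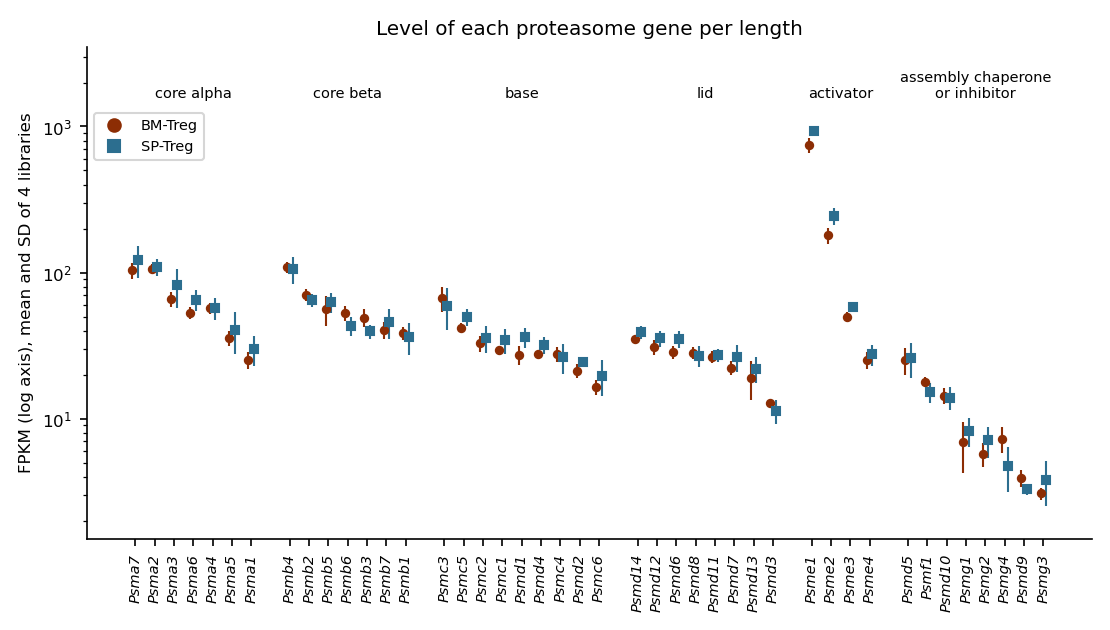
FPKM (log axis) of each proteasome gene that passed the filter, as mean and SD of 4 libraries in BM-Treg (circles) and SP-Treg (squares), grouped by role and ordered by level. Psme1 (746 and 927 FPKM) and Psme2 (180 and 244 FPKM) lie above all core genes shown, and the assembly chaperones Psmg1 to Psmg4 are among the lowest.

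The level of Psme1 depends on how reads were shared between its transcripts. A transcript annotated in GENCODE M21 as a retained intron took 40.4% of its expected counts and one annotated as a target of nonsense-mediated decay 31.5%. In Psmf1 a retained intron transcript also led (35.6%), and in the other 43 genes the leading transcript was protein coding. A second transcript with at least 10% of the counts was present in 21 of the 45 genes. Of the 53 transcripts with at least 10% in those genes, 1 did not overlap between the tissues: ENSMUST00000018430, the protein coding transcript of Psmb6, took 55.2 ± 1.4% in BM-Treg and 61.8 ± 3.1% in SP-Treg (SD, n = 4). The same share over all transcripts was not computed. A random split of the libraries into 4 and 4 separates a transcript in either direction with a probability of 0.0286, so 1 of 53 is not read as a difference. Shares of overlapping transcripts are estimates, and no test was made.

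The other genes of the pathway were read from a list of immunoproteasome subunits, assembly factors, associated enzymes, regulators, shuttle factors and ubiquitin genes. Of the 34 genes reported, 1 was lower in BM-Treg and 33 were not called, with a median log2 fold change of -0.10, while 5.02% of all genes were called lower. Ubqln1, a shuttle that carries ubiquitinated proteins to the proteasome, was at 56.4, 57.5, 62.2 and 67.3 CPM in BM-Treg and at 107, 101, 71.7 and 70.3 CPM in SP-Treg. It was lower by a log2 fold change of -0.53 (SE 0.14, edgeR adjusted p = 0.0321), and the call was lost without BM-Treg replicate 1, 2 or 3 or SP-Treg replicate 1 or 2 and with a batch term (-0.38, edgeR adjusted p = 0.409).

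The immunoproteasome subunits, which can replace Psmb5, Psmb6 and Psmb7, did not pass the test. Psmb8 was at 172 to 229 CPM in BM-Treg and at 187 to 272 CPM in SP-Treg (-0.11, SE 0.12), Psmb9 at 153 to 233 and 202 to 321 CPM (-0.27, SE 0.16) and Psmb10 at 39.7 to 49.1 and 30.1 to 45.5 CPM (0.19, SE 0.13). Set against the subunit each replaces, in FPKM and without a test, Psmb9 over Psmb6 was 4.86, 6.18, 6.26 and 6.09 in BM-Treg and 11.2, 9.18, 6.28 and 9.40 in SP-Treg. SP-Treg replicate 3 was next to the highest BM-Treg library, and the tissues were otherwise apart in FPKM. In CPM they overlapped. There BM-Treg replicate 2 had more Psmb9 (215 against 202 CPM) and less Psmb6 (35.0 against 35.3 CPM) than SP-Treg replicate 3. Psmb8 over Psmb5 was between 2.09 and 3.14 in BM-Treg and between 2.24 and 2.64 in SP-Treg, and Psmb10 over Psmb7 between 0.679 and 1.04 and between 0.507 and 0.852, and both overlapped. Pomp, the assembly factor of the core (-0.27, SE 0.11), Adrm1, a ubiquitin receptor (0.31, SE 0.14), Shfm1, the small lid subunit also named Sem1 (-0.09, SE 0.18), and Nfe2l1, a transcription factor of proteasome genes (-0.12, SE 0.14), had edgeR adjusted p between 0.141 and 0.801.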

How the data were processed

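RNA from sorted FoxP3+ cells (15 ng per library) was amplified by SPIA and sequenced single-end at 80 nt on 4 libraries per tissue. The authors deposited expected counts per gene and per transcript, which are not normalized between libraries, and FPKM, which they scaled for length and depth; the submitters' processing notes name cutadapt 1.9, STAR 2.5.2a, RSEM 1.2.30 and GRCm38, and the annotation and the use of strand are not given in the sources used here. All 8 libraries were used, each column was assigned by its name, and 0 remained unassigned.

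Expected counts were rounded and genes kept by edgeR's filter on the groups (13397 of 38215). They were TMM-normalized and tested by edgeR's quasi-likelihood test over the whole table, without covariates and with Benjamini-Hochberg adjustment at 0.05 (R 4.3.3, edgeR 4.0.16, limma 3.58.1, DESeq2 1.42.0, Python 3.11.15). The procedure was tested on simulated data. CPM use TMM library sizes, and deviations use log2(CPM + 0.5). FPKM were read as deposited. Total expected counts, between 12427136 and 21921252 per library, limit the precision for low genes, and since reads carry no molecular identifiers the errors given are those between libraries.

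The proteasome genes, the pathway and marker lists and the rule for naming genes were chosen with earlier results of these data known. Named were genes past the threshold, the gene with the largest difference in each role, the catalytic subunits, Psmd4, Psmd14, the activators, Psmf1, genes with few counts, rows that are no subunit, and of the pathway list the genes past the threshold, Psmb8, Psmb9, Psmb10, Pomp, Adrm1, Shfm1 and Nfe2l1. Of 37 list entries of the pathway 34 were in the table; 1 further gene of the list is not reported here and is left out of the counts over the list, which therefore do not give its direction or call. Of the 50 proteasome genes, the identifiers of all 50 are in GENCODE M21, 35 with the same coordinates. Alternatives were DESeq2's size factors and test, limma-voom, limma on log2(FPKM + 1) and log2(FPKM + 0.1), looser and stricter filters, a batch term, batch 3 alone, a replicate block, libraries left out, a threshold of 0.01 and no mitochondrial genes. Leaving out BM-Treg replicate 1 and SP-Treg replicate 4 together, summing Psme2 with Psme2b-ps, and omitting Psmc3ip and Psme2b-ps were added after the data had been seen. Transcript FPKM were not used.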

Additional observations from a re-analysis of the deposited data

Results flagged for a closer look

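In groups of 4 libraries, 8 values stood far from the other 3 of their tissue by the 95% limit of Dixon's test among 78 groups looked at, of which chance flags about 1 in 20. BM-Treg replicate 1 was low for Psma6 (38.7 CPM, the others from 48.1 to 49.5), for Psmb3 (26.8 CPM, the others from 36.4 to 38.2), for Psmb8 (172 CPM, the others from 220.0 to 229) and for the ratio of Psmb9 to Psmb6 in FPKM (4.86, the others from 6.09 to 6.26). SP-Treg replicate 4 was high for Psmb5 (61.6 CPM, the others from 46.7 to 48.5) and for Psmd14 (59.3 CPM, the others from 46.3 to 47.8). BM-Treg replicate 4 was high for Psme2b-ps (63.7 CPM, the others from 48.3 to 50.7) and low for the ratio of Psmb8 to Psmb5 in FPKM (2.09, the others from 3.10 to 3.14); it is the BM-Treg library labelled batch 3 and male. BM-Treg replicate 1, with 4 of these values, had the lowest median deviation over the 45 proteasome genes (-0.24) and SP-Treg replicate 4, with 2, the highest (0.32), whereas that of BM-Treg replicate 4, also with 2, was 0.03. What sets these values apart was not tested.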

How the results depend on the processing

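The main fit called 2 proteasome genes, and the number was 1 with DESeq2's size factors, 4 with DESeq2's test, 0 with log2(FPKM + 1) or log2(FPKM + 0.1), 1 without a filter, 1 with at least 10 counts in every library, 0 with a batch term, 0 at a threshold of 0.01 and 1 without both BM-Treg replicate 1 and SP-Treg replicate 4. It was 3 with limma-voom and 2 without mitochondrial genes, and leaving out each library in turn gave 0 to 3. The reported pathway genes called, 1 in the main fit, were 3 with DESeq2's test, 0 with either FPKM scale, 2 without a filter, 0 with a batch term, 0 at a threshold of 0.01, 0 to 3 with each library left out and 3 without both libraries. The median log2 fold change of the proteasome genes (-0.22) was -0.26 to -0.13 with each library left out, -0.087 within batch 3, -0.036 without both libraries, and stayed within 1 SD between libraries (0.14) and negative in the other fits. All genes called fell from 1172 to 258 with a batch term.

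The sign turned for Psmb5 (0.23 with a batch term, 0.036 without both libraries; -0.40 to -0.06 with each left out), Psmb7 (0.092, batch term), Psmd4 (0.062, batch term; 0.11 without both; -0.13 to 0.029 with each left out), Nfe2l1 (0.014 with log2(FPKM + 1), 0.015 with log2(FPKM + 0.1); -0.22 to 0.019 with each left out), Psmb8 (0.011 and 0.011 on those scales, 0.097 without both; -0.19 to 0.0044 with each left out), Psmb9 (0.026 without both; -0.35 to -0.12) and Shfm1 (0.12, batch term; 0.16 without both; -0.17 to 0.074). Within batch 3 it also turned for Psmb5 (0.25), Psmb7 (0.11), Psmd4 (0.079) and Shfm1 (0.14). None of these had passed the threshold, and the cause was not tested. The BM-Treg to SP-Treg ratio of the summed core genes was 0.953 in FPKM and 0.912 in CPM.

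Replicate numbers did not pair the samples: same-numbered libraries of the tissues had correlations of -0.11, 0.06, -0.18 and 0.04 between their deviations, and the best match of BM-Treg replicate 1 was SP-Treg replicate 3 (0.19). With a replicate block 2 proteasome genes were called, Psme1 and Psme2, and their median was -0.23. The limits of these data are 4 libraries per tissue, 1 BM-Treg library in batch 3, and counts too low for Psma8, Psmb11 and 3 pseudogenes to be compared.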

Other observations

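The remaining groups of the pathway list had these values. The 5 genes of proteins that associate with the proteasome (Usp14, Uchl5, Ube3c, Ube3a and Txnl1) had a median log2 fold change of -0.23, with 4 negative and 0 called. The 7 genes of the p97 segregase, which extracts ubiquitinated proteins from membranes and complexes, had a median of -0.09, with 5 negative and 0 called. The 4 regulators of proteasome gene transcription (Nfe2l1, Nfe2l2, Ddi2 and Ngly1) had a median of -0.19, with 3 negative and 0 called. The 5 shuttle factors had a median of -0.05, with Ubqln1 called lower. The 5 reported genes of ubiquitin and its activation had a median of -0.05, with 3 negative and 0 called. Among these, chosen after the values were seen, Uba6, an enzyme that activates ubiquitin, was at 33.8 to 39.0 CPM in BM-Treg and at 37.1 to 56.0 CPM in SP-Treg (-0.44, SE 0.13, edgeR adjusted p = 0.0531), and Ubb was at 397 to 635 and 302 to 581 CPM (0.37, SE 0.21, edgeR adjusted p = 0.316). AI314180, the mouse symbol of Ecm29, which tethers the regulatory particle to the core, was at 87.2, 91.5, 72.3 and 74.9 CPM in BM-Treg and at 111, 94.2, 115 and 101 CPM in SP-Treg, without overlap, and missed the threshold (-0.37, SE 0.11, edgeR adjusted p = 0.0516). It was named after its values were seen.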
